A study of Mus musculus with 30 samples.

Results

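The genes described here, in sorted mouse islet cells, are 10 in number: Tagln3, Lrtm1, Tac1, Slc5a1, Ryr3, Defb1, Fgl2, Scel, Aqp4 and St8sia2, of 17775 genes in the deposited expression table. They were named one by one, with no threshold, chosen by their expression values, which were high in alpha-cells made to express Pdx1, and each was then set against its level in beta-cells. The p-values below for Pdx1-expressing alpha-cells against beta-cells use those same values, so they describe the genes and are not independent of the choice. The working name for the set was genes induced by Pdx1 outside the beta-cell programme, and the data go against that name for Defb1, Scel and Aqp4, which were called higher in beta-cells than in alpha-cells. In the fit over all libraries these 3 were not called different from beta-cells in either group of Pdx1-expressing alpha-cells. With only the libraries of the comparison fitted, Scel was called higher and Aqp4 lower than beta in alpha Pdx1, and Scel was also called higher with library weights and without the 5 doubted libraries described below. Without those 5 libraries Slc5a1 too was called higher in beta-cells than in alpha-cells.

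Bulk RNA-seq libraries, 30 in all, came from islet cells isolated by fluorescence-activated sorting, in 5 groups. Alpha Pdx1 DT (6 libraries) held alpha-cells of mice that combined Glucagon-rtTA and TetO-Cre with the alleles R26YFP, CAGPdx1 and RIP-DTR, given diphtheria toxin (DT) at 2 months of age and sampled 30 days later. Alpha Pdx1 (5 libraries) held alpha-cells of 3-month-old mice with the same alleles but without RIP-DTR and without toxin. Beta (7 libraries) held beta-cells of 3-month-old Insulin-mCherry mice. Alpha DT (4 libraries) held alpha-cells of Glucagon-Venus; RIP-DTR mice 30 days after toxin given at 2 months, and alpha (8 libraries) held alpha-cells of 3-month-old Glucagon-Venus mice. RIP-DTR places the toxin receptor under the rat insulin promoter, so that the toxin kills beta-cells. In both Pdx1 groups a glucagon promoter drives rtTA, which with doxycycline turns on Cre, and Cre then switches on the YFP marker and the Pdx1 transgene. Reporter, driver alleles and Pdx1 therefore differ at once between the Pdx1 groups and their controls and cannot be told apart. The labels do not say whether libraries of a group came from separate animals, so the p-values measure only the spread between these libraries. Libraries are numbered within a group in the order of their records.

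Pdx1 is a homeodomain transcription factor that builds the pancreas in the embryo and keeps insulin genes active in adult beta-cells, while adult alpha-cells, which make glucagon, normally lack it. Homeodomain proteins bind short A and T rich sequences with the core TAAT. The 10 genes have roles known mainly from other tissues. Tac1, St8sia2, Lrtm1 and Tagln3 are known from nerve cells or from the surface of cells, Slc5a1, Aqp4 and Ryr3 move glucose, water and calcium across membranes, and Defb1, Fgl2 and Scel belong to secreted defence and to epithelial barriers.

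Promoter sequences, from 250 bases before to 50 bases after the RefSeq start on GRCm38.p6, were matched for 7 of the 10 genes by symbol. TAAT on either strand (written ATTA on the other strand) stood in 5 of the 7, and 58.0% of 32851 RefSeq promoters of this length hold it. The palindrome TAATTA, which contains TAAT and ATTA overlapping, stood in 2 of the 7, Tagln3 and Tac1, and 5.29% of promoters hold it. The promoters shown, 4 in number, were picked because they span this range: Tagln3 and Tac1 with the palindrome, Lrtm1 with 4 separate cores, the most of the 7, and Slc5a1 with none. Capitals mark TAAT, ATTA and TAATTA. The regions are chr16:45724482-45724781 on the minus strand for Tagln3, chr6:7554811-7555110 on the plus strand for Tac1, chr14:29017958-29018257 on the plus strand for Lrtm1 and chr5:33103969-33104268 on the plus strand for Slc5a1.
Tagln3: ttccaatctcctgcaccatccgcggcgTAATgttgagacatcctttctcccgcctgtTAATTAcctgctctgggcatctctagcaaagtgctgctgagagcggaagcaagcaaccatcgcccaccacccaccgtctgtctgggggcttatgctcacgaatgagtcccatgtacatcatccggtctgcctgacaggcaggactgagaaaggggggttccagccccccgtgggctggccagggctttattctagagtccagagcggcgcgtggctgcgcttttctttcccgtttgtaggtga
Tac1: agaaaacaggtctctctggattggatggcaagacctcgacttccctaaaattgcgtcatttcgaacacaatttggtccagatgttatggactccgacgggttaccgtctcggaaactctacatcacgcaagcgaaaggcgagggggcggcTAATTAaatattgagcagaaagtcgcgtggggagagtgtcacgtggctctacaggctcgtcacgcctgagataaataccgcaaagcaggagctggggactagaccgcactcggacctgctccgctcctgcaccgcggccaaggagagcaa
Lrtm1: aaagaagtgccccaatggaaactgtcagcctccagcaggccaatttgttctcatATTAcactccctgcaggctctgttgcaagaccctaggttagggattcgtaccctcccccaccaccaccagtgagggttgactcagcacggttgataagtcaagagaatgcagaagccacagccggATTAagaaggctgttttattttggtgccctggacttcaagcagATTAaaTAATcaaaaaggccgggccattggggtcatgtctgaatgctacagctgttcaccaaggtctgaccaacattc
Slc5a1: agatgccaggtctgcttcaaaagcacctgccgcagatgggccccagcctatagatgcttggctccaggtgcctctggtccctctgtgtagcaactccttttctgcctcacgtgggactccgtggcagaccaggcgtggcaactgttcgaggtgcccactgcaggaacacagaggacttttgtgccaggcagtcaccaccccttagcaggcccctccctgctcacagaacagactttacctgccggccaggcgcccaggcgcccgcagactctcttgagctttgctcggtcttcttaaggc
The palindrome began at position -193 relative to the start in Tagln3 and at position -100 in Tac1. In Fgl2 one core lay at the upstream end of the window and one just after the start, in Scel the core began at the start itself, and St8sia2, like Slc5a1, had none. These matches describe the letters in the windows and do not show binding.

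All values are quantile-normalized log2 values, so that every library has the same distribution, with quartiles of 5.95, 8.55 and 10.37 and a lowest value of 0.76. All 10 genes passed the filter on low values, a minimum of 5 reached by 4 or more libraries, which 16633 genes passed. Read depth is not known from these values.

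Pdx1 checks the labels. It ran from 11.53 to 12.59 in 5 alpha Pdx1 DT libraries and from 8.61 to 11.83 in the alpha Pdx1 libraries, and from 10.45 to 11.77 in beta, 3.71 to 6.70 in alpha DT and 3.66 to 5.61 in 7 alpha libraries. The library labelled alpha Pdx1 DT 5 had 5.51 and the library labelled alpha 8 had 11.23, each outside its own group. The glucagon gene Gcg was among the 5 highest genes in every library of the 4 alpha groups, and the insulin gene Ins2 among the 3 highest in every beta library, but Gcg was also the top gene in beta 1 and beta 5, and alpha Pdx1 5 had the lowest Pdx1 of its group, 8.61. The 10 genes followed Pdx1 and not the label in alpha Pdx1 DT 5 and alpha 8. They did not follow the low Pdx1 of alpha Pdx1 5 in the same way. Their mean was 10.12 there and 10.52 to 11.02 in the rest of its group, and 4 of the 10 were lowest in it. In alpha 8 all 10 stood above the other 7 alpha libraries and at or above the lowest alpha Pdx1 library. In alpha Pdx1 DT 5 all 10 stood below the other 5 libraries of its group and at or below the highest of alpha 1 to 7. The share of all genes that did so was not counted for either library. The 10 were chosen as high in Pdx1-expressing alpha-cells, so these counts describe the libraries and are no result about the 10 genes. Alpha Pdx1 DT 5 and alpha 4 had a correlation of 0.993 over 17775 genes, the highest of 435 library pairs, against a median of 0.939 within groups, and their values of the 10 genes differed by 0.03 to 0.75. Each result below for the 10 genes is given with all libraries. Where a call in a tested comparison differs, it is also given without alpha Pdx1 DT 5, alpha Pdx1 5, beta 1, beta 5 and alpha 8 (the 5 doubted libraries). Sizes often differ too and are given only in part. Lrtm1 in alpha Pdx1 DT minus beta, for example, was 5.97 with all libraries and 7.89 without the 5. Relatives, marker lists and correlations are given with all libraries only.

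**Figure D1:**
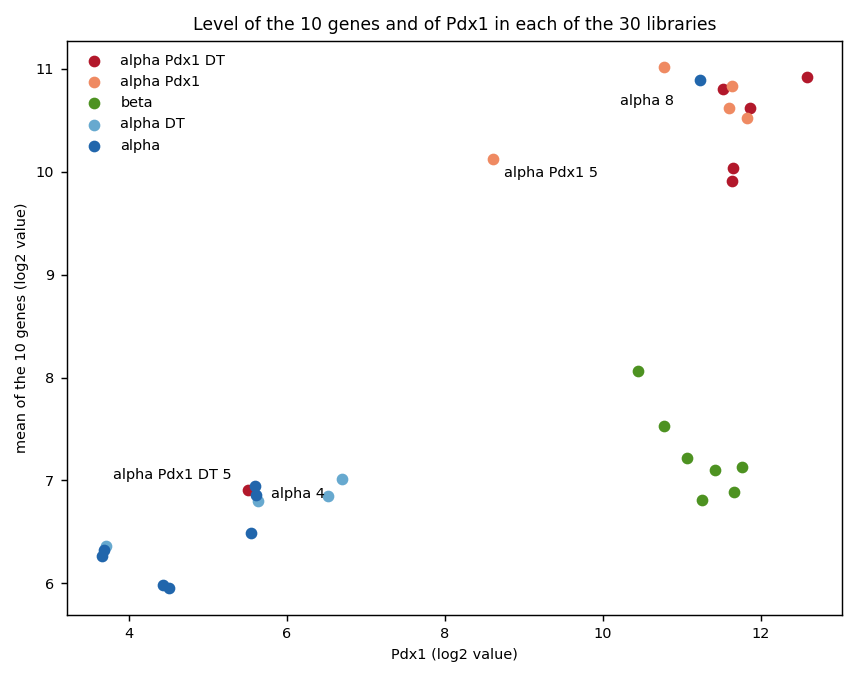
Mean log2 value of the 10 genes (vertical axis) against the log2 value of Pdx1 (horizontal axis) in each of the 30 libraries, coloured by labelled group, with 4 libraries named. Alpha 8 (mean 10.89) lies among the Pdx1 groups and alpha Pdx1 DT 5 (mean 6.91) among the alpha libraries, while beta libraries have high Pdx1 and means between 6.81 and 8.06.

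Averaged over the 10 genes, the alpha Pdx1 DT libraries other than library 5 had means between 9.91 and 10.92 and the alpha Pdx1 libraries between 10.12 and 11.02. Beta lay between 6.81 and 8.06 and alpha DT between 6.36 and 7.01, and alpha other than library 8 between 5.95 and 6.95. Pdx1 itself was about as abundant in beta as in the Pdx1 groups. High Pdx1 without a high mean was thus seen in beta alone of the groups. In bulk RNA, more cells with a transcript and more transcript per cell cannot be told apart.

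**Figure D2:**
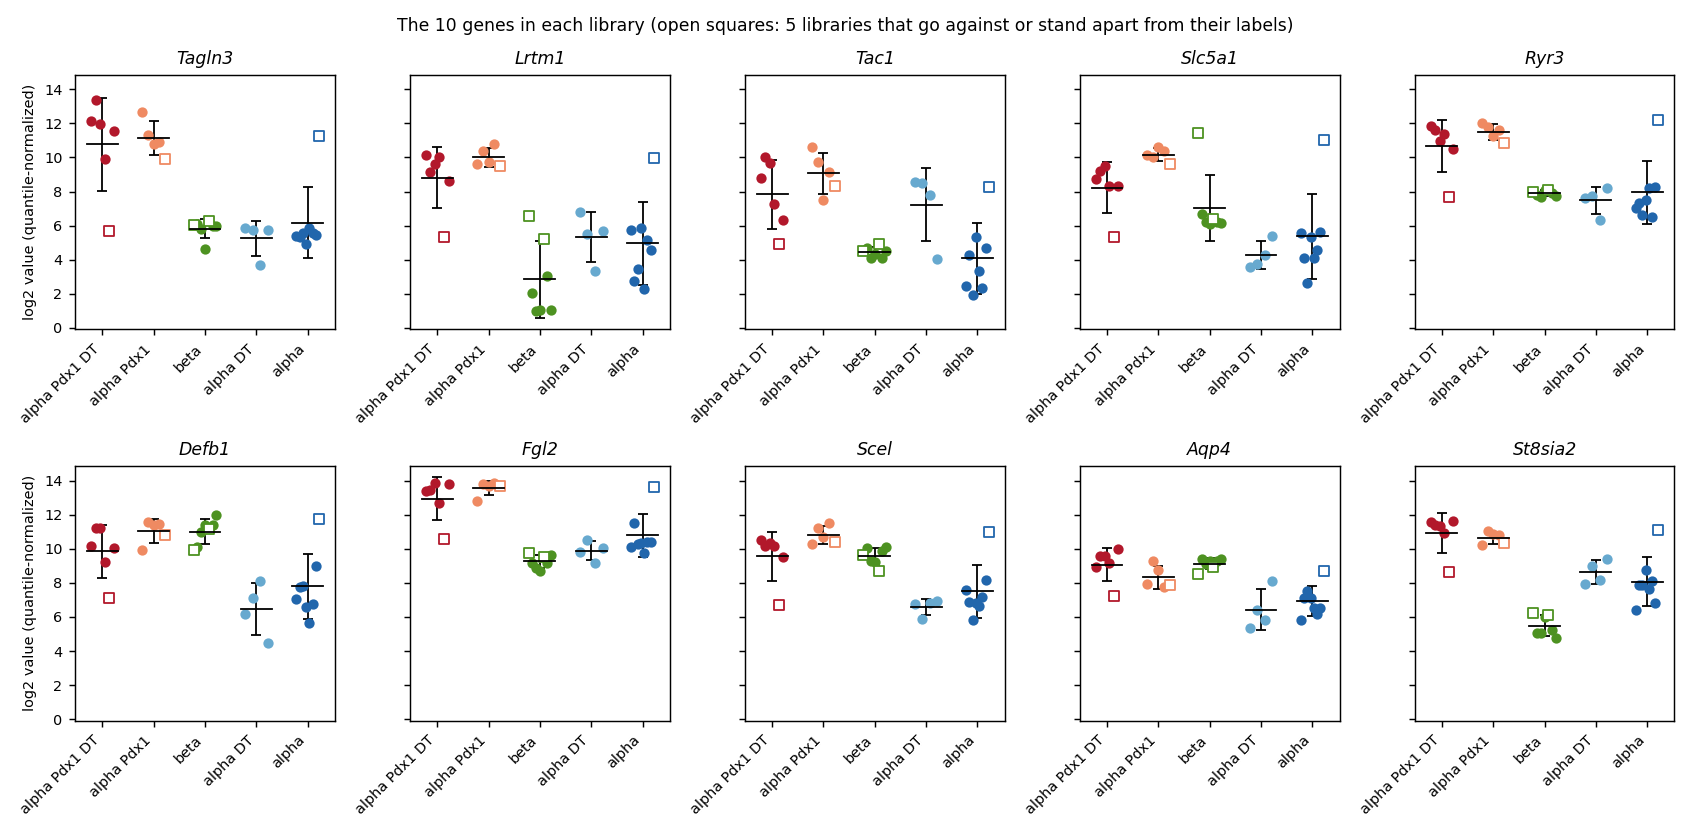
Log2 values of each gene in every library of the 5 groups, with group means (horizontal bars) and SD (vertical bars), and open squares for the 5 doubted libraries. Defb1, Scel and Aqp4 stand as high in beta as in the Pdx1 groups or nearly so, Lrtm1, Fgl2 and St8sia2 are low in beta, and the open squares of alpha (library 8) and alpha Pdx1 DT (library 5) lie away from their groups in all 10 panels.

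Tac1 encodes the precursor of the neuropeptides substance P and neurokinin A (GRCm38 chr6:7554879-7565834, plus strand). Tac1 had a lowest, median and highest value of 4.90, 8.04 and 10 in the 6 alpha Pdx1 DT libraries, and 10.60, 9.76, 7.48, 9.16 and 8.35 in the 5 alpha Pdx1 libraries. The lowest, median and highest values were 4.10, 4.49 and 4.94 in beta, the 4 alpha DT libraries had 8.55, 8.52, 7.80 and 4.05, and the lowest, median and highest in alpha were 1.94, 3.80 and 8.27. Beta and 7 of 8 alpha libraries were low, the alpha Pdx1 libraries were high but spread widely, and 3 of the 4 alpha DT libraries overlapped both Pdx1 groups. Tac1 stood 4.99 ± 0.90 above alpha in alpha Pdx1 (log2 difference ± SE) and 0.60 ± 1.02 above alpha DT in alpha Pdx1 DT. The first of these ran from 3.28 to 5.76 under the other settings. Against beta, Tac1 was higher by 4.61 ± 0.92 in alpha Pdx1 (adjusted p = 0.000271) and by 3.37 ± 0.88 in alpha Pdx1 DT (adjusted p = 0.00436). Its beta minus alpha difference, 0.38 ± 0.81, did not pass (adjusted p = 0.76).

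St8sia2 encodes a sialyltransferase that adds polysialic acid to the cell adhesion protein NCAM in the developing brain (chr7:73939119-74013690, minus strand). In the 6 alpha Pdx1 DT libraries the lowest, median and highest values of St8sia2 were 8.61, 11.38 and 11.62, and the 5 alpha Pdx1 libraries had 10.23, 11.03, 10.88, 10.80 and 10.32. Beta ran through 4.79, 5.21 and 6.24 (lowest, median and highest), alpha DT had 7.93, 8.98, 8.17 and 9.42, and alpha ran through 6.38, 7.87 and 11.12. Beta was lowest and overlapped no other group, and the Pdx1 groups were highest, with alpha 8 among them and alpha Pdx1 DT 5 among the alpha DT libraries. The difference was 2.58 ± 0.53 in alpha Pdx1 over alpha and 2.30 ± 0.60 in alpha Pdx1 DT over alpha DT. St8sia2 was higher than in beta by 5.16 ± 0.55 in alpha Pdx1 (adjusted p = 1.54e-08) and by 5.43 ± 0.52 in alpha Pdx1 DT (adjusted p = 2.57e-09). Beta was also below alpha, with a difference of -2.58 ± 0.49 (adjusted p = 9.95e-05).

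Lrtm1 encodes a membrane protein with leucine-rich repeats (chr14:29018208-29033645, plus strand). It lies inside Cacna2d3, which is on the opposite strand, and exons of the 2 genes do not overlap. Alpha Pdx1 DT had a lowest, median and highest Lrtm1 value of 5.32, 9.36 and 10.16, and the alpha Pdx1 libraries had 9.60, 10.39, 9.71, 10.80 and 9.51. In beta the lowest, median and highest were 0.99, 2.04 and 6.59, alpha DT libraries had 6.79, 5.52, 3.32 and 5.71, and in alpha they were 2.27, 4.85 and 9.95. Beta libraries 3, 4 and 7 were near the lowest value in the table, and the highest were beta 1 and beta 5, the libraries with glucagon on top. Every Pdx1 library except alpha Pdx1 DT 5 stood above every beta library. Alpha Pdx1 exceeded alpha by 5.04 ± 1.06 (3.71 to 5.87 under the other settings) and alpha Pdx1 DT exceeded alpha DT by 3.48 ± 1.20. Lrtm1 was higher than in beta by 7.16 ± 1.09 in alpha Pdx1 (adjusted p = 8.4e-06) and by 5.97 ± 1.03 in alpha Pdx1 DT (adjusted p = 5.63e-05). With 32 added on the linear scale, which damps values near the floor, these were 4.49 ± 0.65 and 3.46 ± 0.61. The beta minus alpha difference of -2.12 ± 0.96 missed the threshold (adjusted p = 0.0885) and passed it without the 5 doubted libraries (-2.62 ± 0.60, adjusted p = 0.00101), without alpha 5 (-2.50, adjusted p = 0.043), without beta 1 (-2.74, adjusted p = 0.0207) and without beta 5 (-2.51, adjusted p = 0.0497).

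Tagln3 encodes transgelin-3, a calponin-related protein of the cytoskeleton known from neurons (chr16:45711230-45724608, minus strand). Tagln3 had a lowest, median and highest value of 5.67, 11.78 and 13.35 in the 6 alpha Pdx1 DT libraries, and 12.66, 11.29, 10.77, 10.92 and 9.93 in the 5 alpha Pdx1 libraries. The lowest, median and highest values were 4.64, 5.99 and 6.27 in beta, the 4 alpha DT libraries had 5.85, 5.73, 3.71 and 5.75, and the lowest, median and highest in alpha were 4.92, 5.49 and 11.27. Beta, alpha DT and 7 of 8 alpha libraries ran from 3.71 to 6.27, with alpha DT 3 and beta 4 below the rest of their groups, and every Pdx1 library other than alpha Pdx1 DT 5 lay above that range. Tagln3 stood 4.95 ± 0.97 above alpha in alpha Pdx1 (log2 difference ± SE) and 5.51 ± 1.09 above alpha DT in alpha Pdx1 DT. Tagln3 was higher than in beta by 5.29 ± 0.99 in alpha Pdx1 (adjusted p = 0.000163) and by 4.94 ± 0.94 in alpha Pdx1 DT (adjusted p = 0.000229). The beta minus alpha difference did not pass, at -0.34 ± 0.88 (95% confidence interval -2.14 to 1.46, adjusted p = 0.799), or 0.26 ± 0.44 without the 5 doubted libraries.

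Slc5a1 encodes SGLT1, the sodium-coupled glucose transporter of the gut lining and kidney tubule (chr5:33104219-33162870, plus strand). In the 6 alpha Pdx1 DT libraries the lowest, median and highest values of Slc5a1 were 5.32, 8.54 and 9.48, and the 5 alpha Pdx1 libraries had 10.13, 10.01, 10.62, 10.38 and 9.61. Beta ran through 6.12, 6.23 and 11.46 (lowest, median and highest), alpha DT had 3.59, 3.77, 4.30 and 5.40, and alpha ran through 2.62, 4.96 and 11.00. Beta 1 alone carried the beta maximum, and the other 6 beta libraries lay between 6.12 and 6.71, above 7 of the 8 alpha libraries and below every Pdx1 library except alpha Pdx1 DT 5. The difference was 4.78 ± 0.98 in alpha Pdx1 over alpha (3.67 to 5.71 under the other settings) and 3.97 ± 1.11 in alpha Pdx1 DT over alpha DT. Against beta, Slc5a1 was higher by 3.11 ± 1.00 in alpha Pdx1 (adjusted p = 0.0181), a call that was lost with the level of the ribosomal RNA gene Rn18s-rs5 as a covariate (2.74 ± 1.40, adjusted p = 0.24). The Rn18s-rs5 levels of alpha Pdx1 (16.90 to 18.27) and beta (19.27 to 19.87) did not overlap, so that fit can hardly tell this level from the group. The alpha Pdx1 DT minus beta difference of 1.20 ± 0.95 did not pass (adjusted p = 0.392), and it passed without the 5 doubted libraries (2.53 ± 0.46, adjusted p = 8.44e-05). The beta minus alpha difference behaved likewise, 1.67 ± 0.89 (adjusted p = 0.152) with all libraries, 1.72 ± 0.42 (adjusted p = 0.00198) without the 5 and 2.47 (adjusted p = 0.00459) without alpha 8 alone.

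Aqp4 encodes a water channel best known from astrocytes (chr18:15389496-15410982, minus strand). Alpha Pdx1 DT had a lowest, median and highest Aqp4 value of 7.21, 9.37 and 10.01, and the alpha Pdx1 libraries had 7.93, 9.31, 8.75, 7.76 and 7.86. In beta the lowest, median and highest were 8.52, 9.26 and 9.40, alpha DT libraries had 5.38, 6.39, 5.84 and 8.10, and in alpha they were 5.83, 6.82 and 8.72. Beta formed a tight high band, 2 of the 5 alpha Pdx1 libraries lay within it and 3 below it, and the alpha Pdx1 DT libraries other than library 5 lay within and above it. Alpha Pdx1 exceeded alpha by 1.38 ± 0.44 and alpha Pdx1 DT exceeded alpha DT by 2.65 ± 0.50. The first of these was the smallest of the 10 genes' differences in that contrast. Aqp4 was higher in beta than in alpha by 2.19 ± 0.40 (adjusted p = 5.24e-05). The alpha Pdx1 minus beta difference of -0.81 ± 0.45 (95% interval -1.73 to 0.11) did not pass (adjusted p = 0.172), and it passed with the libraries of these groups fitted alone (adjusted p = 0.0155). The alpha Pdx1 DT minus beta difference did not pass, at -0.06 ± 0.43 (95% interval -0.93 to 0.82, adjusted p = 0.946).

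Ryr3 encodes a ryanodine receptor, a channel that releases calcium from the endoplasmic reticulum (chr2:112631355-113217096, minus strand). Ryr3 had a lowest, median and highest value of 7.67, 11.16 and 11.85 in the 6 alpha Pdx1 DT libraries, and 12.04, 11.81, 11.26, 11.60 and 10.83 in the 5 alpha Pdx1 libraries. The lowest, median and highest values were 7.68, 7.90 and 8.09 in beta, the 4 alpha DT libraries had 7.64, 7.75, 6.34 and 8.19, and the lowest, median and highest in alpha were 6.50, 7.39 and 12.22. The 7 beta libraries lay close together inside the range of alpha, and the Pdx1 groups other than alpha Pdx1 DT 5 lay above them, above alpha DT and above 7 of the 8 alpha libraries. Ryr3 stood 3.55 ± 0.68 above alpha in alpha Pdx1 (log2 difference ± SE) and 3.18 ± 0.77 above alpha DT in alpha Pdx1 DT. Ryr3 was higher than in beta by 3.61 ± 0.70 in alpha Pdx1 (adjusted p = 0.000212) and by 2.76 ± 0.66 in alpha Pdx1 DT (adjusted p = 0.0024), while beta minus alpha was -0.05 ± 0.62 (95% interval -1.31 to 1.21, adjusted p = 0.961), or 0.50 ± 0.31 without the 5 doubted libraries. Exons of Ryr3 overlap Aven on the opposite strand, and whether counting used strand is not given in the sources used here. Aven averaged 5.83 ± 0.51 in alpha Pdx1 and 5.55 ± 0.68 in alpha (SD, n = 5 and 8), a difference of 0.28 ± 0.46.

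Defb1 encodes a beta-defensin, an antimicrobial peptide of epithelia (chr8:21776599-21795185, plus strand). In the 6 alpha Pdx1 DT libraries the lowest, median and highest values of Defb1 were 7.10, 10.11 and 11.24, and the 5 alpha Pdx1 libraries had 9.90, 11.59, 11.38, 11.47 and 10.79. Beta ran through 9.92, 11.18 and 11.95 (lowest, median and highest), alpha DT had 6.19, 7.10, 8.11 and 4.46, and alpha ran through 5.62, 7.41 and 11.74. Beta and alpha Pdx1 covered almost the same range, and alpha DT and 7 of 8 alpha libraries lay below both. The difference was 3.23 ± 0.78 in alpha Pdx1 over alpha and 3.38 ± 0.88 in alpha Pdx1 DT over alpha DT. The beta level was above alpha by 3.19 ± 0.71 (adjusted p = 0.000862). Differences from beta were 0.04 ± 0.80 in alpha Pdx1 (95% interval -1.61 to 1.69, adjusted p = 0.975) and -1.14 ± 0.76 in alpha Pdx1 DT (95% interval -2.71 to 0.42, adjusted p = 0.291), and neither passed.

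Fgl2 encodes a fibrinogen-like protein known from macrophages and from blood clotting (chr5:21372642-21378374, plus strand). Alpha Pdx1 DT had a lowest, median and highest Fgl2 value of 10.55, 13.40 and 13.83, and the alpha Pdx1 libraries had 12.82, 13.79, 13.68, 13.88 and 13.66. In beta the lowest, median and highest were 8.72, 9.17 and 9.77, alpha DT libraries had 9.83, 10.52, 9.16 and 10.06, and in alpha they were 9.73, 10.34 and 13.60. Every library of both Pdx1 groups, alpha Pdx1 DT 5 included, stood above every beta library. Alpha Pdx1 exceeded alpha by 2.78 ± 0.50 and alpha Pdx1 DT exceeded alpha DT by 3.05 ± 0.57. Fgl2 exceeded beta by 4.31 ± 0.52 in alpha Pdx1 (adjusted p = 2.36e-07) and by 3.68 ± 0.49 in alpha Pdx1 DT (adjusted p = 1.32e-06). Beta was below alpha, with a difference of -1.53 ± 0.46 (adjusted p = 0.00985).

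Scel encodes sciellin, a precursor of the cornified envelope of the skin (chr14:103513342-103612797, plus strand). Scel had a lowest, median and highest value of 6.72, 10.15 and 10.53 in the 6 alpha Pdx1 DT libraries, and 10.27, 11.20, 10.68, 11.51 and 10.39 in the 5 alpha Pdx1 libraries. The lowest, median and highest values were 8.71, 9.65 and 10.11 in beta, the 4 alpha DT libraries had 6.78, 5.86, 6.80 and 6.91, and the lowest, median and highest in alpha were 5.84, 7.03 and 10.98. Every alpha Pdx1 library stood above every beta library, and 5 of the 6 alpha Pdx1 DT libraries stood within the beta range or above it. Scel stood 3.30 ± 0.60 above alpha in alpha Pdx1 (log2 difference ± SE) and 2.98 ± 0.67 above alpha DT in alpha Pdx1 DT. Scel was higher in beta than in alpha by 2.05 ± 0.54 (adjusted p = 0.00377). The alpha Pdx1 minus beta difference of 1.26 ± 0.61 missed the threshold (adjusted p = 0.115) and passed it without the 5 doubted libraries (1.22 ± 0.36, adjusted p = 0.0118), with library weights (1.28, adjusted p = 0.0284) and with the libraries of these groups fitted alone (adjusted p = 0.000946). The alpha Pdx1 DT minus beta difference was 0.02 ± 0.58 (95% interval -1.17 to 1.21, adjusted p = 0.989).

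Set against beta by limma with Benjamini-Hochberg adjustment over all genes, the 10 genes did not behave as 1 group. Tested on 16633 genes, 7 of 10 were higher in alpha Pdx1 than in beta and 0 lower, where 16.7% of all genes were called higher and 32.9% in either direction. In alpha Pdx1 DT 6 of 10 were higher than in beta and 0 lower, where 12.9% were called higher and 26.3% in either direction, and Slc5a1 was the member that differed between these counts. Without the 5 doubted libraries the counts were 8 and 7, all higher. Of 16461 genes, 2200 and 2037 were then called higher and 4381 and 4237 in either direction. With the libraries of each comparison fitted alone the counts were 9 (Aqp4 lower) and 6, given here without the share over all genes. Between beta and alpha, 3 of 10 were higher in beta (Defb1, Scel and Aqp4), 2 were lower (Fgl2 and St8sia2) and 5 did not pass, where 34.5% of all genes were called, 16.9% higher and 17.6% lower. With all libraries, Tac1, Tagln3, Ryr3, Lrtm1 and Slc5a1 were the 5 called in neither direction between beta and alpha, and all 5 were called higher in alpha Pdx1 than in beta. Without the 5 doubted libraries 7 of 10 were called between beta and alpha, where 5283 of 16461 genes were. Slc5a1 was then higher in beta (1.72, adjusted p = 0.00198) and Lrtm1 lower (-2.62, adjusted p = 0.00101). Fgl2 and St8sia2, lower in beta than in alpha, were called higher than beta in both Pdx1 groups. The median difference over the 10 was 3.96 for alpha Pdx1 minus beta and 3.07 for alpha Pdx1 DT minus beta, against 0.02 and -0.04 over all genes. The groups that chose the genes share the alpha Pdx1, alpha Pdx1 DT and alpha libraries with these comparisons, and beta levels were known when the set was named. The counts, and the p-values given for each gene, are therefore not independent of the choice.

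**Figure D3:**
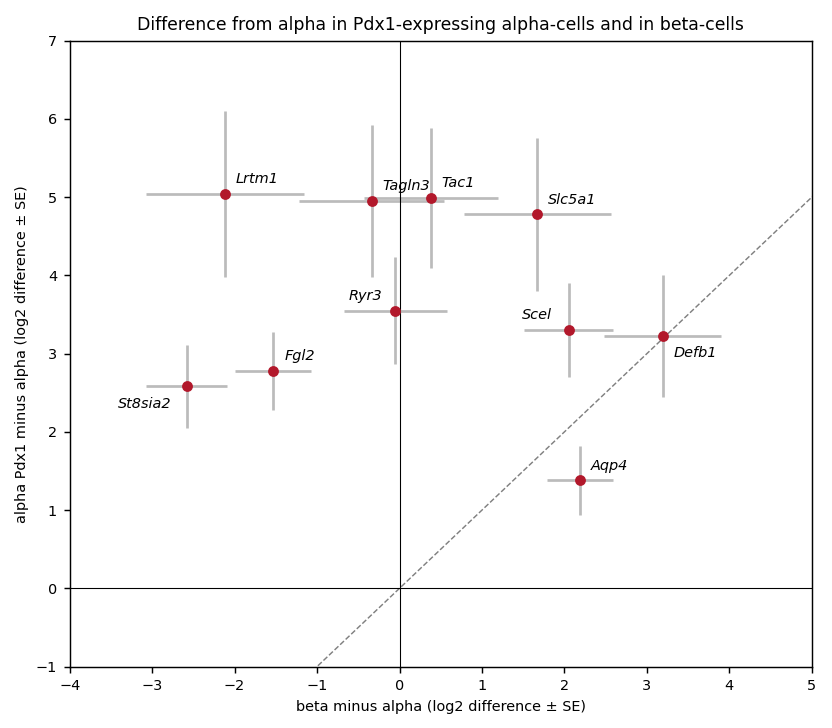
Log2 difference of alpha Pdx1 minus alpha (vertical axis, the contrast that chose the genes) against beta minus alpha (horizontal axis) for each of the 10 genes, with SE bars from the fit and a dashed line where both are equal. Defb1 lies on the line and Aqp4 below it, Scel and Slc5a1 lie above it to the right, Tac1, Ryr3 and Tagln3 lie near 0 on the horizontal axis, and Lrtm1, Fgl2 and St8sia2 lie to its left.

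In the contrasts that chose them, given as a description only, all 10 genes were above alpha in alpha Pdx1, by 1.38 (Aqp4) to 5.04 (Lrtm1), and all 10 above alpha DT in alpha Pdx1 DT, by 0.60 (Tac1) to 5.51 (Tagln3). Over all genes, 4.33% were called in the first, 2.36% higher and 1.98% lower, and 2.1% in the second, 1.78% higher. With alpha 8 included, 0 of the 10 separated alpha Pdx1 from alpha in every library, where 0.649% of all genes did so with alpha Pdx1 higher. Without the 5 doubted libraries all 10 did, where 4.12% of all genes did so in that direction, and 9 of 10 separated alpha Pdx1 DT from alpha DT, where 3.52% did, with Tac1 overlapping.

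The toxin contrasts compare groups with and without toxin. The RIP-DTR allele, the toxin and the loss of beta-cells differ at once between these groups and cannot be told apart. Without Pdx1, 0 of 10 passed in alpha DT against alpha by limma, where 3.26% of all genes were called. An unadjusted p under 0.05 was reached by 3335 of 16633 genes and by 1 of the 10. That gene was Tac1, with values of 8.55, 8.52, 7.80 and 4.05 in the 4 alpha DT libraries and a lowest, median and highest alpha value of 1.94, 3.80 and 8.27. The difference of 3.15 ± 0.96 missed the threshold (adjusted p = 0.0628). It passed without alpha 8 (3.74, adjusted p = 0.0172), without alpha DT 4 (4.21, adjusted p = 0.0105) and without the 5 doubted libraries (3.74 ± 0.79, adjusted p = 0.00991), and it lay between 1.83 and 3.81 under the other settings. The other 9 genes differed by -1.33 to 0.56.

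Some transcripts of other cell types also stood higher in alpha DT, where 1.57% of all genes were called higher. Of 8 tested leukocyte markers 5 rose, with a median difference of 4.62 against -0.06 over all genes, and the mean of the list ran from 7.60 to 11.17 in alpha DT libraries and from 4.02 to 6.85 in alpha libraries. Timd4, a macrophage receptor, rose by 5.71 (adjusted p = 0.00368). Of 4 glial markers 1 rose, the lipid-binding protein gene Fabp7, by 4.15 (adjusted p = 0.0172), and of 15 neuronal markers 1 rose, Stmn2, a regulator of microtubules in axons, by 4.85 (adjusted p = 0.0172). The glial and neuronal list medians were 0.82 and 0.26. None of the delta-cell (5), acinar (15), ductal (9), endothelial (2) or mesenchymal (5) markers passed by limma. Their list medians were 1.99, 1.73, -0.05, 1.25 and -1.01. In the same order, 3, 0, 3, 1 and 1 of them had an unadjusted p under 0.05, where 3335 of 16633 genes did. The part of other cell types in the Tac1 difference was not tested. Fgl2 did not pass and was at 9.83, 10.52, 9.16 and 10.06 in alpha DT, with a lowest, median and highest alpha value of 9.73, 10.34 and 13.60 (difference -0.90 ± 0.54, adjusted p = 0.363).

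With Pdx1, 0 of 10 genes passed in alpha Pdx1 DT against alpha Pdx1 by limma, where 9.22% of all genes were called. An unadjusted p under 0.05 was reached by 0 of the 10 and by 4439 of 16633 genes. Slc5a1 had 8.73, 9.23, 9.48, 8.30, 5.32 and 8.34 in alpha Pdx1 DT libraries 1 to 6 and 10.13, 10.01, 10.62, 10.38 and 9.61 in alpha Pdx1. Slc5a1 was the 1 gene of the 10 whose groups did not overlap, with alpha Pdx1 DT lower, and 2.53% of all genes were separated in that direction. The difference of -1.92 ± 1.04 did not pass (adjusted p = 0.238), nor did -1.47 ± 0.48 without the 5 doubted libraries (adjusted p = 0.0566). Aqp4 differed the other way, by 0.75 ± 0.47 (adjusted p = 0.309), and by 1.01 ± 0.42 without the 5 (adjusted p = 0.128). The remaining 8 differed by -1.24 to 0.27, and Tagln3 changed sign without the 5 (-0.35 against 0.37). The Rn18s-rs5 level also differed between these groups, at 20.99 ± 1.25 in alpha Pdx1 DT and 17.31 ± 0.56 in alpha Pdx1 (SD, n = 6 and 5), and with it as a covariate Aqp4 changed sign (-0.13) and 0 of 16633 genes passed here. Its part in the Slc5a1 difference was not otherwise tested.

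The difference between the toxin contrasts with and without Pdx1 (alpha Pdx1 DT minus alpha Pdx1, less alpha DT minus alpha) passed for 0 of 10 genes and for 0.0% of all genes by limma. At an unadjusted p under 0.05 it held 1 of the 10 and 1527 of 16633 genes. The 1 was Tac1, at -4.38 ± 1.36 (adjusted p = 0.409, 95% interval -7.15 to -1.61). For the other 9 it lay between -1.56 (Lrtm1) and 1.26 (Aqp4).

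Relatives of the 10 genes were listed by family, 80 genes in all, of which 30 were tested. In alpha Pdx1 against alpha, 1 of 30 rose and 1 fell, where 2.36% and 1.98% of all genes did. An unadjusted p under 0.05 was reached by 6 of the 30 and by 2914 of 16633 genes. The median difference of the 30 was -0.11 against 0.03 over all genes. The riser was Cnn3, a calponin related to Tagln3, by 1.28 ± 0.27 (adjusted p = 0.00604), and the faller was Itpr3, an inositol trisphosphate receptor that like Ryr3 releases stored calcium, with -0.73 ± 0.18 (adjusted p = 0.0174). In alpha Pdx1 DT against alpha DT 0 of 30 passed by limma, where 2.1% of all genes did. An unadjusted p under 0.05 was reached by 6 of the 30 and by 2738 of 16633 genes, and the median of the 30 was 0.01. These counts are from the fit with all libraries. Without the 5 doubted libraries more genes passed in both contrasts (1098 against 721, and 950 against 349), and the relatives were not counted there. None of the other sodium-coupled transporters tested (5), sialyltransferases and their carrier Ncam1 (6), fibrinogen-related genes (6), cornified envelope genes (3) or aquaporins (2) passed in either contrast. The largest positive difference among these in alpha Pdx1 was that of Slc5a9, a sugar transporter, at 2.12 in alpha Pdx1 against alpha (adjusted p = 0.0685). The other tachykinins, their receptors and the other defensins were not analysed here. In alpha DT against alpha, 2 of 30 relatives rose, where 1.57% of all genes did: Slc5a7, the choline transporter of cholinergic nerve endings, by 4.57 (adjusted p = 0.00896), and Slc5a3, an inositol transporter, by 1.09 (adjusted p = 0.0373).

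**Figure D4:**
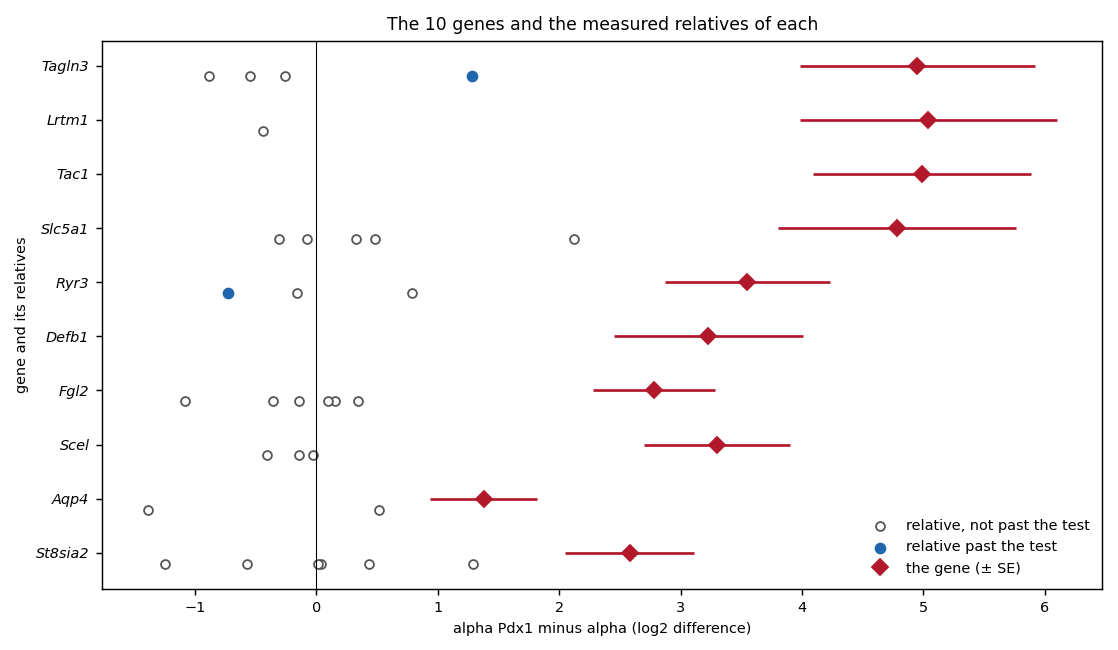
Log2 difference of alpha Pdx1 minus alpha for each of the 10 genes (diamonds with SE bars, a description) and for the tested relatives of each (circles, filled where the adjusted p is under 0.05). The genes lie between 1.38 and 5.04 and the 30 relatives between -1.39 (Aqp7) and 2.12 (Slc5a9), with Cnn3 and Itpr3 filled, and Tac1 and Defb1 have no tested relative.

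Other genes that mark tissues in which the 10 are known were counted in the same contrasts, again in the fit with all libraries only. In alpha Pdx1 against alpha, where 2.36% of all genes were called higher, 0 of 6 enteroendocrine markers, 0 of 4 enterocyte markers and 2 of 15 neuronal markers rose by limma. In either direction, 3, 2 and 5 of them had an unadjusted p under 0.05, where 2914 of 16633 genes did. The list medians were -0.33, 0.29 and -0.01. The neuronal risers were Gap43, a protein of growing axons, by 3.24 (adjusted p = 0.0365), and Dcx, a microtubule protein of migrating neurons, by 0.75 (adjusted p = 0.0423). In alpha Pdx1 DT against alpha DT, where 1.78% of all genes were called higher, 1 of these 25 markers rose, the enterocyte fructose transporter gene Slc2a5, by 0.79 (adjusted p = 0.0194). Of 9 ductal markers 0 passed in either contrast by limma and 1 had an unadjusted p under 0.05 in each, and their mean level ran from 6.72 to 7.77 in alpha Pdx1 and from 7.17 to 8.88 in alpha. Acinar markers averaged 4.35 to 10.95 in alpha Pdx1 libraries and 6.47 to 12.77 in alpha libraries, with a median difference of -3.29 and 0 of 15 past the test by limma (1 at an unadjusted p under 0.05). Markers of islet cells differed by list. Of 5 delta-cell markers 0 passed by limma in alpha Pdx1 against alpha, 1 had an unadjusted p under 0.05, and the list median was -0.06. Of 20 beta-cell markers 6 rose in alpha Pdx1 against alpha (median difference 1.08), with Pdx1 itself, the islet amyloid gene Iapp (4.91, adjusted p = 0.00297) and the insulin gene Ins2 (3.89, adjusted p = 0.0202) the largest. Of 12 alpha-cell markers 2 fell, the amino acid transporter genes Slc38a5 and Slc7a2, each with -1.49 (adjusted p = 0.0301 and 0.0105), and the list median was -1.48. The 2 PP-cell markers, Ppy and Pyy, averaged 18.99 (16.90 to 19.94) in alpha Pdx1 and 16.95 (15.55 to 20.12) in alpha, with 0 of 2 past the test by limma and 1 at an unadjusted p under 0.05. Their mean was 20.12 in alpha 8, the highest of its group, and 16.30 in alpha Pdx1 DT 5, the lowest of its group, as for the 10 genes. The part of acinar RNA and of other islet cells in the differences was not tested.

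Genes whose levels ran most like those of the 10 were sought over the 30 libraries by Pearson's r, as a description, since all share the libraries and the split by Pdx1. The mean of the 10 was most like Cacna2d3 (r = 0.963), a subunit of voltage-gated calcium channels and the gene inside which Lrtm1 lies, then Gatm (0.94), an enzyme of creatine synthesis, Col19a1 (0.935), a collagen, Slc39a8 (0.935), a metal ion transporter, and Cdh4 (0.927), a cadherin. Cacna2d3 averaged 10.26 ± 1.82 in alpha Pdx1 DT, 11.19 ± 0.48 in alpha Pdx1, 7.34 ± 0.62 in beta, 7.11 ± 0.45 in alpha DT and 7.45 ± 1.84 in alpha (SD, n = 6, 5, 7, 4 and 8). It had 11.61 in alpha 8 and 6.75 in alpha Pdx1 DT 5, so it too followed Pdx1 and not those labels. Pdx1 itself stood at rank 110 with r = 0.757, and beta was high in Pdx1 and low in most of the 10.

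Single genes had different closest partners. Ryr3 was also closest to Cacna2d3 (r = 0.956), St8sia2 to Mc4r, the melanocortin 4 receptor (0.95), Fgl2 and Tagln3 to Gm10846 (0.952 and 0.934), and Scel and Slc5a1 to Myo3a, a myosin (0.941 and 0.881). Lrtm1 was closest to Dclk1, a doublecortin-like kinase (0.913), Defb1 to Wls, a carrier of Wnt ligands (0.911), Aqp4 to Fam171b (0.907) and Tac1 to Cpne5, a copine (0.861). Mc4r averaged 10.23 ± 2.10 in alpha Pdx1 DT, 11.15 ± 0.40 in alpha Pdx1 and 3.22 ± 1.16 in beta, against 7.14 ± 1.70 in alpha DT and 7.05 ± 1.88 in alpha. Like St8sia2 it was lowest in beta. Wls averaged 11.28 ± 0.93 in alpha Pdx1 DT, 11.67 ± 0.50 in alpha Pdx1 and 11.96 ± 0.34 in beta, against 10.21 ± 0.40 in alpha DT and 10.25 ± 0.65 in alpha, and like Defb1 it was high in beta. Among the 10 genes themselves the 45 pairs had r between 0.089 and 0.955, with a median of 0.717.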

How the data were processed

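Total RNA of sorted islet cells was prepared with the RNeasy Micro kit and reverse transcribed with the QuantiTect kit, per the labels' protocols, and reads were aligned to GRCm38 with GSNAP, per the submitters' processing notes. Not given in the sources used here are the version, the counting tool, the annotation and the use of strand. The deposited values are log2 values per gene, 17775 genes in 30 libraries, with the same distribution in each library (an other unit in some columns, because those are headed by numbers). Whether they are scaled by gene length is not given, so levels are compared between libraries and not between genes. Depth per library is unknown, so no counting error can be given and no count test was possible.

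Genes that reached 5 in 4 or more libraries were kept (16633, with 1142 removed). One mean per group was fitted with limma 3.58.1 (R 4.3.3, empirical Bayes with trend and robust variances) over all 30 libraries, with two-sided tests, Benjamini-Hochberg adjustment over all genes and a threshold of 0.05. Confidence intervals are from the moderated t distribution. The fit was tested on simulated data. The 10 genes, the gene lists and the 5 doubted libraries, picked by Pdx1 and glucagon levels, were chosen with earlier results of these data known. Contrasts of Pdx1 groups with alpha or alpha DT chose the genes and are given for them with no test. The other 6 comparisons were tested, and they share libraries with the contrasts that chose the genes. Named beside the 10 are list genes past the threshold, at most 3 per list and contrast by size, or the 1 with the largest change, and the closest genes by Pearson's r. Gene positions are from GENCODE M21 and promoters from RefSeq.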

Additional observations from a re-analysis of the deposited data

Results flagged for a closer look

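In groups of 4 to 8 libraries, 18 of the 50 combinations of gene and group held a library whose gap to its nearest neighbour was past Dixon's critical value, where chance gives about 1 in 20. The library labelled alpha 8 was far above the rest of its group for Tagln3 (11.27, next 5.86), Lrtm1 (9.95, next 5.88), Slc5a1 (11.00, next 5.63), Ryr3 (12.22, next 8.26), Fgl2 (13.60, next 11.53) and Scel (10.98, next 8.16). The library labelled alpha Pdx1 DT 5 was far below its group for Lrtm1 (5.32, next 8.63), Slc5a1 (5.32, next 8.30), Ryr3 (7.67, next 10.51), Fgl2 (10.55, next 12.70), Scel (6.72, next 9.54) and St8sia2 (8.61, next 10.94). Both libraries also go against their labels by Pdx1, and whether labels were exchanged was not tested.

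The other 6 combinations were spread over several libraries. Slc5a1 was high in beta 1 (11.46, next 6.71), where glucagon was the top gene. Tac1 was low in alpha DT 4 (4.05, next 7.80), and Tagln3 was low in alpha DT 3 (3.71, next 5.73) and in beta 4 (4.64, next 5.82). Scel was low in alpha DT 2 (5.86, next 6.78) and Fgl2 in alpha Pdx1 1 (12.82, next 13.66). No cause of these was tested.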

How the results depend on the processing

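The number of the 10 genes called stayed within 1.5 times of the main count under every setting for beta against alpha, for either Pdx1 group against beta, for alpha Pdx1 DT against alpha Pdx1 and for the interaction. In alpha DT against alpha it was 1 without the 5 doubted libraries, where 540 of 16461 genes were called. Otherwise it was 0, except in the leave-one-out range. Leaving out each library in turn gave 5 to 6, 7 to 7, 6 to 6, 0 to 1, 0 to 0 and 0 to 0 called genes of the 10 in the 6 tested comparisons, in the order beta minus alpha, alpha Pdx1 minus beta, alpha Pdx1 DT minus beta, alpha DT minus alpha, alpha Pdx1 DT minus alpha Pdx1 and interaction.

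Differences that were not past the threshold changed sign as follows, and the cause was not tested. With a pseudocount of 32, Tac1 in beta minus alpha was -0.13, Lrtm1 in alpha DT minus alpha -0.03 and the Defb1 interaction -0.08. Without the 5 doubted libraries, beta minus alpha was 0.26 for Tagln3 and 0.50 for Ryr3, alpha Pdx1 minus beta was -0.08 for Defb1, alpha Pdx1 DT minus beta was 0.15 for Aqp4, alpha DT minus alpha was 0.14 for Ryr3 and alpha Pdx1 DT minus alpha Pdx1 was 0.37 for Tagln3. With the Rn18s-rs5 level as a covariate, Defb1 in alpha Pdx1 minus beta was -0.15, Aqp4 in alpha Pdx1 DT minus alpha Pdx1 -0.13 and the Tagln3 interaction -0.48. With library weights, Ryr3 in beta minus alpha was 0.06, Aqp4 in alpha Pdx1 DT minus beta 0.04, Tagln3 in alpha Pdx1 DT minus alpha Pdx1 0.75 and the St8sia2 interaction 0.14. Scaling to housekeeping genes gave 0.01 for Aqp4 in alpha Pdx1 DT minus beta, and it shifted the median of all genes to -0.322 in beta minus alpha (-0.002 unscaled), 0.238 in alpha Pdx1 minus beta (0.024) and -0.202 in alpha Pdx1 DT minus alpha Pdx1. Either other filter and plain variances leave the differences between group means as they are, so no direction of the 10 genes could change with them.

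Leaving out 1 library at a time spanned 0 for the following. Beta minus alpha ran from -0.52 to 0.38 for Tagln3 and from -0.26 to 0.56 for Ryr3. Alpha Pdx1 minus beta ran from -0.14 to 0.32 for Defb1, and alpha Pdx1 DT minus beta from -0.17 to 0.59 for Scel and from -0.24 to 0.32 for Aqp4. Alpha DT minus alpha ran from -0.11 to 1.09 for Lrtm1 and from -0.71 to 0.14 for Ryr3, alpha Pdx1 DT minus alpha Pdx1 from -0.87 to 0.67 for Tagln3, and alpha Pdx1 DT minus alpha DT from -0.46 to 1.19 for Tac1. The interaction ran from -0.52 to 0.69 for Defb1, -0.17 to 1.58 for Tagln3, -0.13 to 0.75 for Fgl2, -0.99 to 0.22 for Ryr3, -0.82 to 0.25 for Scel and -0.72 to 0.17 for St8sia2.

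Counts over all genes moved more. Without the 5 doubted libraries, 1098 genes passed in alpha Pdx1 minus alpha (721 with all), 950 in alpha Pdx1 DT minus alpha DT (349 with all) and 1 in the interaction. The Rn18s-rs5 covariate left 1907 in alpha Pdx1 minus beta, 295 in alpha DT minus alpha, 0 in alpha Pdx1 DT minus alpha Pdx1, 114 in alpha Pdx1 minus alpha and 190 in alpha Pdx1 DT minus alpha DT. The Rn18s-rs5 level of alpha Pdx1 overlapped neither beta nor alpha Pdx1 DT, so the losses in those comparisons cannot be told from the group. Library weights gave 9375 in beta minus alpha, 9323 in alpha Pdx1 minus beta, 6881 in alpha Pdx1 DT minus beta, 208 in alpha DT minus alpha, 3769 in alpha Pdx1 DT minus alpha Pdx1, 1 in the interaction, 3110 in alpha Pdx1 minus alpha and 32 in alpha Pdx1 DT minus alpha DT. Housekeeping scaling gave 150 in alpha Pdx1 DT minus alpha DT. Fitting the libraries of a comparison alone gave 45 in alpha DT minus alpha, 937 in alpha Pdx1 DT minus alpha Pdx1 and 0 in alpha Pdx1 DT minus alpha DT. Leaving out 1 library gave 5096 to 5930 in beta minus alpha, 4404 to 5662 in alpha Pdx1 minus beta, 3738 to 4363 in alpha Pdx1 DT minus beta, 306 to 1080 in alpha DT minus alpha, 563 to 2558 in alpha Pdx1 DT minus alpha Pdx1, 0 to 3 in the interaction, 300 to 984 in alpha Pdx1 minus alpha and 138 to 931 in alpha Pdx1 DT minus alpha DT.

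No paired analysis was possible because the labels give no replicate numbers that groups share. The precision is limited by 4 to 8 libraries per group and by an unknown depth.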

Other observations

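Of 30 tested relatives of the 10 genes, 11 were higher and 7 lower in beta than in alpha by limma, where 16.9% and 17.6% of all genes were. Among the sialyltransferases related to St8sia2, St8sia5, which adds sialic acid to gangliosides, averaged 1.09 ± 0.16 in alpha Pdx1 and 7.84 ± 0.61 in beta (SD, n = 5 and 7), a difference of -6.76 ± 0.53 (SE, adjusted p = 1.85e-11), and it averaged 1.05 ± 0.36 in alpha (n = 8). The alpha Pdx1 and alpha means of St8sia5 lie near the lowest value of all, 0.76, so the size of that difference is uncertain. St8sia1, the ganglioside GD3 synthase, averaged 6.19 ± 0.68 in alpha Pdx1 and 10.50 ± 0.42 in beta, a difference of -4.31 ± 0.43 (adjusted p = 1.98e-09). The adhesion protein gene Ncam1, whose product carries polysialic acid, was higher in alpha Pdx1 than in beta by 0.83 ± 0.19 (adjusted p = 0.000797).

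The aquaporins Aqp7 and Aqp11 were higher in beta than in alpha like Aqp4, by 2.68 ± 0.54 and 2.64 ± 0.38 (adjusted p = 0.000182 and 1.47e-06). They were called lower in alpha Pdx1 than in beta, with differences of -4.07 ± 0.61 and -2.12 ± 0.43 (adjusted p = 3.58e-06 and 0.00029). Aqp4 had -0.81 ± 0.45 there, which did not pass in this fit (adjusted p = 0.172). It passed with the libraries of these groups fitted alone (adjusted p = 0.0155). The difference between these genes and Aqp4 was not tested. Lrtm2, the relative of Lrtm1, averaged 8.91 ± 0.52 in alpha Pdx1 and 6.03 ± 0.87 in beta, and 9.35 ± 0.61 in alpha, so that it was low in beta without being higher in alpha Pdx1 than in alpha (-0.44).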
